A study of Mus musculus with 30 samples.

Results

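The mitochondrial ribosomal protein genes were taken as the rows of the deposited expression table whose gene symbol was Mrpl or Mrps followed by digits and at most 1 lower-case letter, which leaves out pseudogenes with a suffix. The rule used names only, and it found 78 of the 55357 genes listed, 49 named Mrpl and 29 named Mrps. By their known place, 51 of the encoded proteins belong to the large subunit of the mitochondrial ribosome and 26 to the small subunit. Mrps18a and Mrps30 carry a small-subunit name but sit in the large subunit. The remaining gene, Mrps36, is named as a ribosomal protein, whereas its product is a subunit of the α-ketoglutarate dehydrogenase complex of the citric acid cycle.

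The mitochondrial ribosome translates the messenger RNAs of the mitochondrial genome, which encode core subunits of the respiratory chain and the ATP synthase. Its ribosomal RNAs are made inside the mitochondrion, while all of its proteins are encoded in the nucleus, translated in the cytosol and imported. It derives from a bacterial ribosome and has gained proteins found in no bacterium. Brown adipose tissue, which burns fuel for heat through uncoupled respiration, is rich in mitochondria.

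Messenger RNA was sequenced from C57BL/6N mice in 3 tissues, namely brown fat (BAT), the liver, and sWAT, a common short form for subcutaneous white fat. Every animal was on HFD, the usual abbreviation for high-fat diet, and in each tissue 5 libraries had HFD alone and 5 had HFD plus imeglimin, a drug taken by mouth to lower blood glucose, so that the 30 libraries form 6 groups of 5. The 10 numbers that name the libraries recur in the 3 tissues, and there was no group on ordinary chow. The series' design text gives 4 against 4, and the 5 of the labels were used. The labels and protocols name no age, sex, dose or length of treatment, and they leave unsaid whether each library of a group is a separate mouse. The p-values therefore reflect only how far these samples scatter, and some of that scatter may be technical. In bulk tissue, fewer cells of a type and less RNA per cell cannot be told apart.

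The values are TPM, a share of each library corrected for transcript length. Every library sums to 1000000 TPM, so sequencing depth is unknown. Transcripts of the mitochondrial genome and their near-identical nuclear copies held 63.0% to 69.0% of the total in BAT, 18.9% to 22.1% in liver and 17.0% to 22.9% in sWAT. In BAT the share was 63.0% to 67.9% under HFD and 67.4% to 69.0% with imeglimin. In sWAT it was 17.0% to 22.9% and 17.3% to 20.1%, and in liver 20.4% to 21.6% and 18.9% to 22.1%. How far this shifted the TPM of other genes between the treatments was not tested. Because of these shares, comparisons between tissues are given on 3 scales. These are the deposited TPM, a rescaled TPM computed after leaving out the mitochondrial transcripts and near-copies, and a median-ratio scaling between libraries. The 6 brown adipocyte markers summed to between 5886 and 8104 TPM in BAT and to between 20.0 and 77.9 TPM in sWAT. In liver they summed to between 207.3 and 519.1 TPM. There Elovl3, a marker of this list, had 189.6 to 493.9 TPM, against 10.55 to 44.54 TPM in BAT. Ucp1 had 4102 to 5950 TPM in BAT and at most 0.703 TPM in liver. The 10 hepatocyte markers summed to between 92580 and 109600 TPM in liver. In sWAT those hepatocyte markers summed to between 432 and 1129 TPM, except in the imeglimin library 88, where they reached 14330 TPM. Outside library 88, Cyp2e1 alone held 324 to 989 TPM of these sums. Alb had 6876 TPM in library 88, 354 TPM in the imeglimin library 89 and 15.1 to 78.8 TPM in the other sWAT libraries. Ttr had 1457, 120 and at most 23.1 TPM in the same order. In BAT the sum of the hepatocyte markers ranged from 15.9 to 895.5 TPM under HFD and from 24.7 to 1512 TPM under imeglimin. The 6 white adipocyte markers summed to 8120 TPM in sWAT library 88 and to between 15360 and 18120 TPM in the other sWAT libraries. The 8 lymphocyte markers summed to 3276 TPM in that library and to between 554.9 and 2029 TPM in the others. The 12 skeletal muscle markers in BAT ranged from 100.2 to 6254 TPM under HFD and from 14.4 to 5385 TPM under imeglimin, highest in libraries 79 and 94. The markers of each labelled tissue were present in all of its libraries. Without BAT libraries 79 and 94 and sWAT library 88, the main counts, sums and list medians are also given, while the values of single members are those of all libraries unless stated.

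The 78 genes lie on 17 chromosomes (GRCm39 coordinates of the deposited table). By their known families, 31 large-subunit and 17 small-subunit proteins have a counterpart in the bacterial ribosome, against 20 and 9 without one, here called mitochondria-specific. A head-to-head neighbour was counted where a gene on the opposite strand started up to 1000 bases away and pointed away, or where both overlapped at their starts by under 100 bases. It was found for 21 of 78 genes, or 26.9%. The same arrangement was found for 1611 of the 14953 expressed genes, or 10.8%. With overlaps of up to 1000 bases counted as well, the numbers were 33 members, or 42.3%, and 2536 expressed genes, or 17.0%. Mrps11 and Mrpl46, whose starts lie 412 bases apart with overlap, are a pair under the wider definition only. Among the pairs of the narrower definition, the starts of Mrps18c and the helicase gene Helq were 29 bases apart, those of Mrpl54 and Apba3 26 bases, and those of Mrps12 and the mitochondrial seryl-tRNA synthetase gene Sars2 172 bases. For 24 genes the annotated span overlapped another expressed gene, on the same strand in 5 cases. Those 5, Mrps6, Mrps24, Mrps34, Mrpl53 and Mrpl15, are the ones for which reads could have been divided between overlapping genes. A near-identical transcript of another gene at 1 TPM or more was present for Mrpl23, Mrps34 and Mrps36, and the values of these 3 are uncertain to that extent. For Mrps36 the copy, Mrps36-ps1, averaged 1.12 TPM against 65.8 TPM for the gene itself.

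Promoters were read from RefSeq (GRCm38.p6, a build other than that of the table), which had an entry for 69 of the 78 symbols. The motifs were searched as exact letters on both strands, from 250 bases before to 50 bases after the start, and matches of different motifs may overlap. The ETS-type letters CCGGAAG were in 26 of 69 promoters, or 37.7%, against 18.7% of the 11052 promoters of expressed genes. The YY1 letters AAGATGGC were in 12, or 17.4%, against 4.95%, and the NRF1 core GCGCATGC was in 8, or 11.6%, against 5.47%. NRF1 and ETS-family factors are known regulators of nuclear genes for mitochondrial proteins. The CCAAT box was in 39.1% against 42.6%, the Sp1 box GGGCGG in 49.3% against 65.4%, and TATAAA in 7.25% against 9.59%. Among all 27025 promoters of the table the shares were 9.93% for CCGGAAG, 3.19% for AAGATGGC, 3.05% for GCGCATGC, 41.1% for CCAAT, 38.2% for GGGCGG and 15.7% for TATAAA. A match describes these letters only, and no binding was measured. The 4 promoters shown are those of the gene most abundant in BAT, of the gene with the largest positive imeglimin difference in BAT, and of the members that differed most between tissues. Each line gives the 250 bases before the start from 5′ to 3′ on the gene's strand, with motif letters in capitals.
Mrpl34, chr8:71464676-71464925, plus strand: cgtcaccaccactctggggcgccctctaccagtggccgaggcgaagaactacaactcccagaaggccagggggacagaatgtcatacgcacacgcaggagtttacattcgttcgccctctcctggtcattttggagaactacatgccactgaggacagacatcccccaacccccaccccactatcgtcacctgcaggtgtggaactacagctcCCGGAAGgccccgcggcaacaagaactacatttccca
Mrps18a, chr17:46110754-46111003, plus strand: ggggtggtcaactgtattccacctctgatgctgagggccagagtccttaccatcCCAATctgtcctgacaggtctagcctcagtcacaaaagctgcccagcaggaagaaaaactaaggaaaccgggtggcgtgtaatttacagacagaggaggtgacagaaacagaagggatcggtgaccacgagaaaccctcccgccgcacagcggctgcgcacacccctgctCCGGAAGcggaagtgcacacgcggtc
Mrps36, chr13:100744660-100744909, minus strand: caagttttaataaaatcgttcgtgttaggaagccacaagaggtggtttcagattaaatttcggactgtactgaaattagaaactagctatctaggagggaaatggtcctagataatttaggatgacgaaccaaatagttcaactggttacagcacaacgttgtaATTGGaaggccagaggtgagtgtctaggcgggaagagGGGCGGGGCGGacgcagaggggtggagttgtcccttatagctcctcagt
Mrps6, chr16:92058086-92058335, plus strand: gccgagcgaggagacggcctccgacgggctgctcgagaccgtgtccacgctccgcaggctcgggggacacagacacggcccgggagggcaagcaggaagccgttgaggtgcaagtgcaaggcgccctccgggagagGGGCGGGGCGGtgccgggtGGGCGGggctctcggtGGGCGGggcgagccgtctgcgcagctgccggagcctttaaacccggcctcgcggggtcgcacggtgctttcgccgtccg
In these 250 bases Mrpl34 and Mrps18a each hold the ETS-type letters, and Mrps18a also a CCAAT box. The Mrps36 promoter has a CCAAT box on the opposite strand and overlapping Sp1 boxes. The Mrps6 promoter has Sp1 boxes and no other of the motifs searched.

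All 78 genes were expressed in all 3 tissues, with a mean of at least 1 TPM, and all passed the filter on low values. Within a tissue they differed widely: in BAT the lowest was Mrps10 at 6.22 TPM and the highest Mrpl34 at 245 TPM, a 39.4-fold range around a median of 33.1 TPM. In liver the range ran from Mrps25 at 4.02 TPM to Mrpl12 at 129 TPM, with a median of 24.7 TPM. In sWAT it ran from Mrps35 at 6.60 TPM to Mrps6 at 287 TPM, with a median of 39.3 TPM. In BAT 69 of the genes averaged 10 TPM or more, in liver 64 and in sWAT 74. Between the 5 libraries of a group a gene varied little. Its coefficient of variation, averaged over both treatment groups of a tissue, had a median of 7.52% in BAT, 8.29% in liver and 8.52% in sWAT.

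Mrpl34, the homolog of bacterial protein L34 in the large subunit, lies on chromosome 8 at 71917603 to 71918391, plus strand. It ranged in deposited TPM from 224.9 over a median of 238 to 281 in BAT, from 81.4 over 109.6 to 119 in liver and from 102.7 over 121 to 149 in sWAT. Its BAT libraries were all above those of the other tissues, whereas liver and sWAT overlapped. Mrpl12, a protein of the ribosomal stalk that has also been described as binding the mitochondrial RNA polymerase, was abundant everywhere. Its mean was 159 ± 12.5 TPM in BAT, 129 ± 8.62 TPM in liver and 126 ± 14.8 TPM in sWAT (SD, n = 10 each).

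Mrps36, on chromosome 13 at 100872463 to 100881167, minus strand, had 142 ± 7.88 TPM in BAT, 40.6 ± 3.89 TPM in sWAT and 15.2 ± 2.41 TPM in liver (SD, n = 10 each). Its ranges did not overlap, from 134 to 159 in BAT, from 35.1 to 47.5 in sWAT and from 11.6 to 19.7 in liver. Mrps6, the homolog of bacterial S6 in the small subunit, lies on chromosome 16 at 91855158 to 91909115, plus strand. Its TPM ranged from 147 to 350.1 in sWAT, from 42.7 to 66.4 in BAT and from 12.7 to 16.2 in liver, again without overlap. The lowest sWAT value, 147 TPM, came from library 88, and the others were between 254 and 350.1 TPM. The span of Mrps6 contains Slc5a3, the gene of a sodium and myo-inositol transporter, on the same strand, so reads may have been divided between them. Slc5a3 had 64.0 ± 13.7 TPM in sWAT, 13.5 ± 3.09 TPM in BAT and 2.10 ± 0.479 TPM in liver of the HFD groups (SD, n = 5 each).

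**Figure D1:**
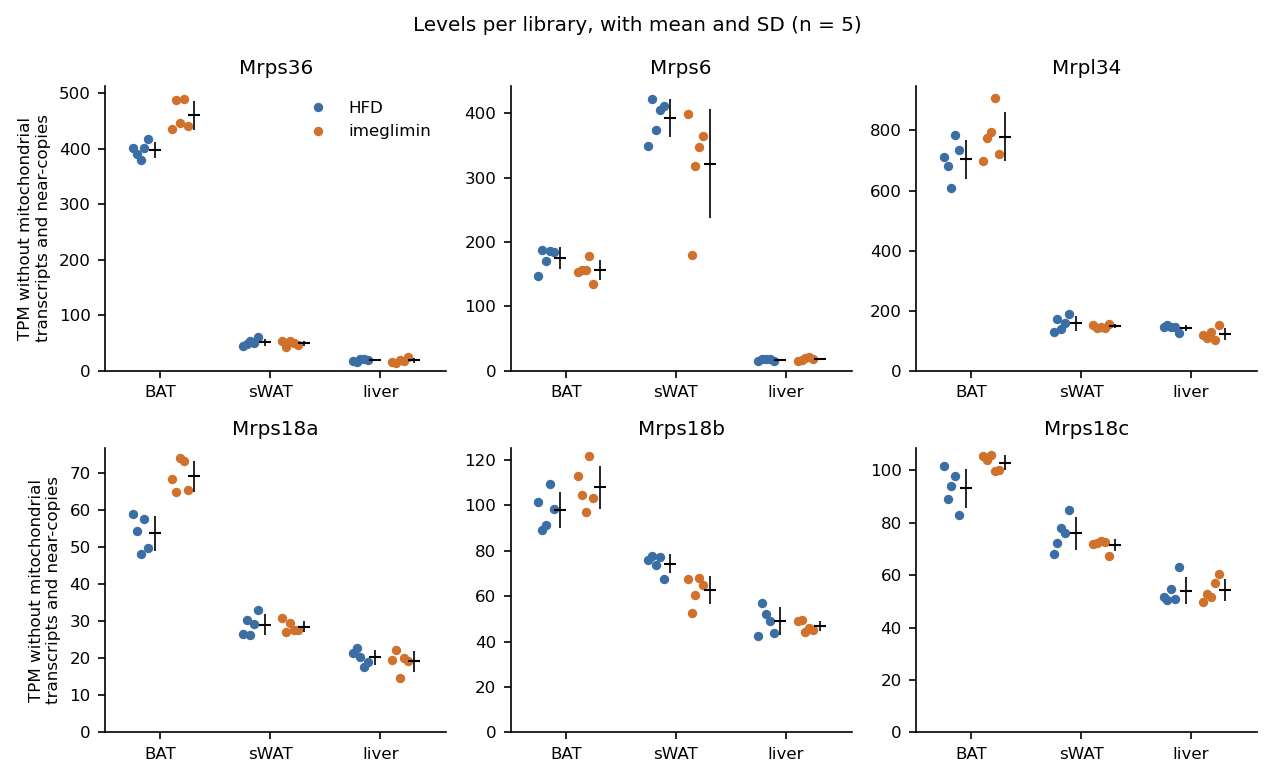
TPM per library after leaving out mitochondrial transcripts and their near-copies, on a linear axis, in BAT, sWAT and liver. The genes are Mrps36, Mrps6, Mrpl34 and the paralogs Mrps18a, Mrps18b and Mrps18c. Each point is a library, blue for HFD and orange for HFD with imeglimin. Mrps36 and Mrpl34 are highest in BAT, at means of 429 and 742, and Mrps6 is highest in sWAT, at 357.

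The imeglimin comparison asked whether the drug altered these genes in mice on HFD. In BAT no gene of the 78 passed limma's test at an adjusted p of 0.05, while 0.868% of the 11402 genes tested passed, 1 higher and 98 lower. That count over all genes was unstable: it was 5 on each of the other 2 scales, 0 without libraries 76, 79, 80, 89, 91 or 94 (each left out alone), and 698 without library 88. At an unadjusted p under 0.05 there were 3 members higher and 7 lower, where 1.25% of all genes were higher and 23.0% lower. The log2 differences of the 78 genes ran from -0.30 to 0.23, 28 of them positive and 50 negative, with a median of -0.02, against -0.12 for all genes tested. The 95% interval of a single gene extended a median of 0.16 to either side, so differences within that size could not be seen. The direction of the list depended on the scale: after leaving out mitochondrial transcripts the median was 0.10 against -0.01 for all genes. With median-ratio scaling it was 0.12 against 0.00 for all genes, with 70 members positive and 8 negative. Again none was called on either scale. On rescaled TPM the summed members in BAT were 1.07 times as high with imeglimin as under HFD. The ratio was 1.083 for nuclear genes of oxidative phosphorylation and 1.154 for cytosolic ribosomal proteins, so the members did not stand apart from these lists. Translation factors and tRNA synthetases had negative medians on that scale, as given below. Mrpl and Mrps genes had medians of -0.02 each on the deposited scale.

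The 3 members with the lowest p in BAT were higher in each imeglimin library than in any HFD library, without passing the correction. Mrpl41, a mitochondria-specific protein of the large subunit, had 38.3, 42.5, 42.3, 44.2 and 40.1 TPM under HFD and 44.8, 49.4, 49.6, 47.6 and 47.9 TPM with imeglimin. The groups did not overlap, and the log2 difference was 0.20 (SE 0.0544, adjusted p = 0.077). Mrps16, the homolog of bacterial S16 in the small subunit, had 22.98, 21.7, 22.7, 23.3 and 23.7 TPM against 27.1, 24.4, 26.5, 27.9 and 25.9 TPM, a log2 difference of 0.20 (SE 0.053, adjusted p = 0.0778). Mrps18a, the S18 paralog of the large subunit, had 19.9, 18.7, 17.8, 20.5 and 16.0 TPM against 22.0, 21.2, 23.1, 22.7 and 20.8 TPM. Its log2 difference was 0.23 (SE 0.0706, adjusted p = 0.0934). These 3 were the only members whose BAT groups did not overlap, against 6.81% of all genes tested, 26 of them higher and 750 lower. Without library 88, Mrps16 passed at a log2 difference of 0.22 (adjusted p = 0.0406), and Mrpl38 passed as lower at -0.20 (adjusted p = 0.0458). In that fit 0.115% of all genes were called higher and 6.04% lower. Without the muscle-rich libraries 79 and 94 no member passed.

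In the other direction, Mrps6 in BAT had 49.8, 64.8, 63.0, 66.4 and 59.2 TPM under HFD and 49.6, 51.3, 49.0, 55.2 and 42.7 TPM with imeglimin. The groups overlapped through the HFD library at 49.8, and the log2 difference of -0.28 did not pass (SE 0.0899, adjusted p = 0.101). Slc5a3, which shares its span, had 13.5 ± 3.09 TPM under HFD and 8.95 ± 1.49 TPM with imeglimin in BAT (SD, n = 5 each). Mrps15, a small-subunit protein with a bacterial homolog, had a log2 difference of -0.20 in BAT (SE 0.065, adjusted p = 0.107).

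In liver no member passed, nor did any of the 11516 genes tested (0.0%). At an unadjusted p under 0.05, 4 members were lower and 0 higher, where 2.54% of all genes were lower and 1.67% higher. The median log2 difference was -0.03 against -0.01 for all genes, with 25 positive and 53 negative values between -0.24 and 0.15. The lowest p belonged to Mrpl18, the homolog of the bacterial protein that binds 5S ribosomal RNA. It had 74.7, 70.4, 73.0, 71.8 and 58.5 TPM under HFD and 64.6, 52.7, 58.3, 60.4 and 57.1 TPM with imeglimin. The groups overlapped through the HFD library at 58.5, and the log2 difference was -0.24 (SE 0.0775, adjusted p = 0.984). Mrpl34 at -0.24, Mrpl55 at -0.18, Mrps34 at -0.15 and Mrpl11 at -0.18 followed, all with an adjusted p of 0.984. Mrpl33 was the single member whose liver groups did not overlap, at 6.07 to 6.85 TPM under HFD and 4.91 to 5.95 TPM with imeglimin, where 0.695% of all genes did the same.

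In sWAT no member passed either, where 2 of the 13736 genes tested passed (0.0146%). There were 2 members higher and 6 lower at an unadjusted p under 0.05, where 5.7% of all genes were higher and 5.64% lower. The median was -0.04 against 0.04 for all genes, with 27 positive and 51 negative values between -0.34 and 0.24. Mrpl17, the homolog of bacterial L17, had 26.4, 25.5, 27.4, 30.3 and 28.8 TPM under HFD and 26.1, 18.3, 20.7, 22.2 and 23.9 TPM with imeglimin. Its log2 difference of -0.31 did not pass (SE 0.101, adjusted p = 0.321), and the lowest value was that of library 88. Mrpl20 had 129.5, 129, 113, 136 and 115 TPM against 111, 69.7, 96.4, 114 and 107 TPM, with library 88 again lowest. Its difference was -0.34 (SE 0.13, adjusted p = 0.379), and that of Mrpl16 was -0.29 (SE 0.103, adjusted p = 0.354). Mrps15 at 0.22 (SE 0.0764, adjusted p = 0.346) and Mrpl38 at 0.24 (SE 0.0863, adjusted p = 0.354) had the opposite sign. Mrpl38 was the single member without overlap between the sWAT groups, where 3.05% of all genes did not overlap. Its groups nearly touched, at 41.22 TPM in HFD library 83 and 41.23 TPM in imeglimin library 94. Without library 88 no member passed.

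**Figure D2:**
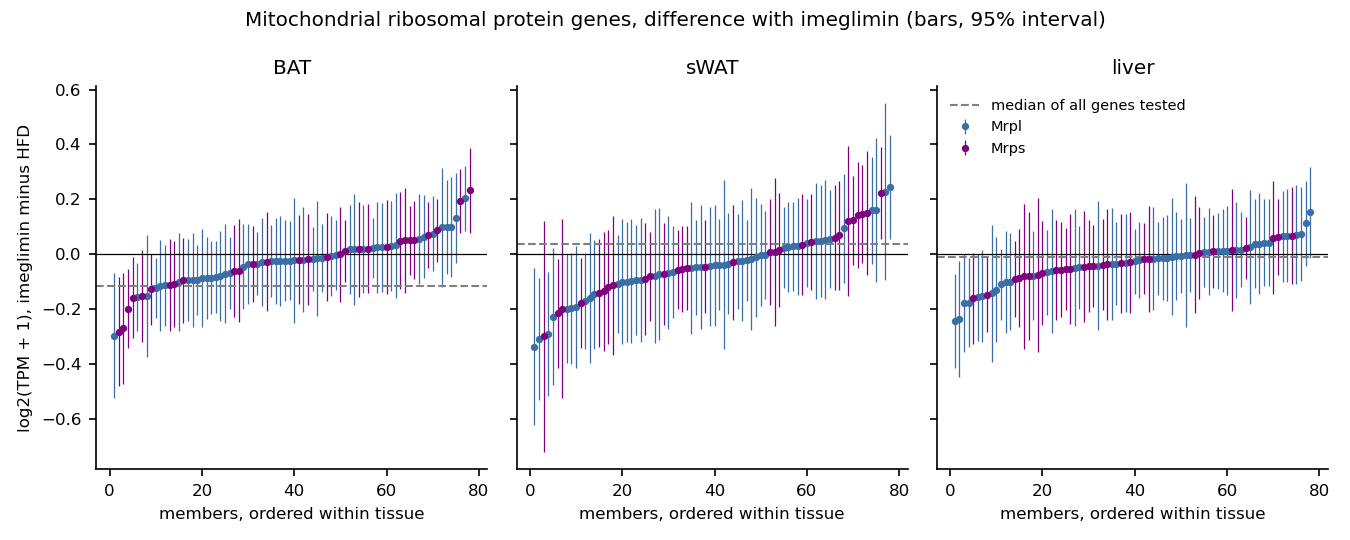
Log2 difference of imeglimin minus HFD in deposited TPM for each of the 78 genes in BAT, sWAT and liver, ordered by value within each tissue, with 95% intervals from limma; Mrpl genes are blue and Mrps genes purple, and the dashed line is the median of all genes tested. The points lie between -0.34 and 0.24, and none passed the adjusted threshold.

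Summed over the 78 genes, the deposited TPM was 3176 ± 179 under HFD and 3124 ± 77.9 with imeglimin in BAT (SD, n = 5 each). In liver the sums were 2468 ± 105 and 2393 ± 94.5 TPM, and in sWAT 4113 ± 156 and 3907 ± 251 TPM. On this scale the difference in each tissue was smaller than the larger of both SDs. In BAT the Mrpl sum was 2056 ± 115 against 2022 ± 47.2 TPM and the Mrps sum 1120.0 ± 65.4 against 1102 ± 33.8 TPM. On the rescaled TPM the BAT sum was 9194 ± 377 under HFD and 9840.0 ± 365 with imeglimin, and the sWAT sum 5171 ± 139 and 4810.0 ± 289. Both of these differences were larger than the larger SD, and they were not tested. The BAT difference thus had the opposite sign on the 2 scales. Without BAT libraries 79 and 94 the rescaled sums were 9333 ± 246 and 9876 ± 408 (SD, n = 4 each). Without sWAT library 88 the rescaled imeglimin sum was 4925 ± 152 (SD, n = 4).

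**Figure D3:**
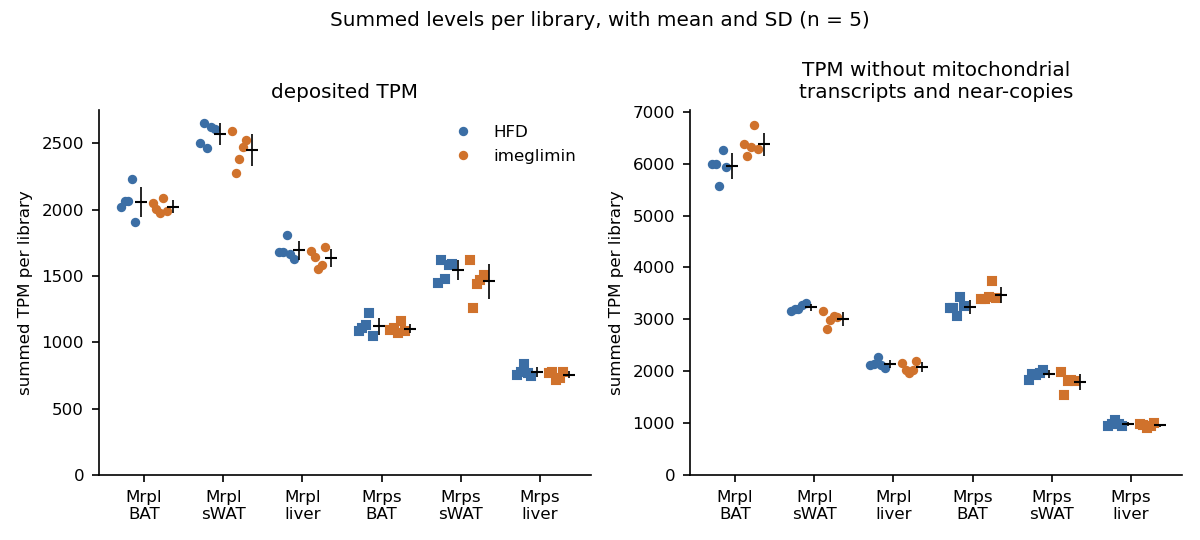
Summed TPM of the Mrpl genes (circles) and the Mrps genes (squares) per library in BAT, sWAT and liver, blue for HFD and orange for HFD with imeglimin, with mean and SD (n = 5); the left panel shows deposited TPM and the right panel TPM without mitochondrial transcripts and their near-copies. Deposited sums are highest in sWAT and rescaled sums are highest in BAT.

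Whether the response differed between tissues was tested as an interaction over all 30 libraries. Between BAT and sWAT, Mrpl38 and Mrps15 passed, 2 of 78 members, or a share close to the 2.05% of the 14953 genes that passed. Mrpl38, a mitochondria-specific protein of the large subunit, lies on chromosome 11 at 116022643 to 116029694, minus strand. In BAT it had 50.2, 52.9, 51.9, 53.8 and 51.3 TPM under HFD and 43.7, 52.1, 45.2, 47.5 and 44.7 TPM with imeglimin. In sWAT it had 37.2, 41.1, 40.5, 39.2 and 41.2 TPM under HFD and 43.6, 47.5, 54.4, 51.2 and 41.2 TPM with imeglimin. The BAT groups overlapped in a single library. The sWAT values were higher with imeglimin, although the highest HFD value, 41.22 TPM, and the lowest imeglimin value, 41.23 TPM, were nearly equal. The difference of the responses was -0.40 on the log2 scale (SE 0.0923, 95% interval -0.59 to -0.21, adjusted p = 0.0261).

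Mrps15, on chromosome 4 at 125940718 to 125949325, plus strand, had 55.7, 60.4, 59.9, 62.5 and 55.7 TPM in BAT under HFD and 51.2, 51.0, 48.7, 58.1 and 47.0 TPM with imeglimin. In sWAT it had 53.5, 63.8, 60.5, 59.9 and 56.0 TPM under HFD and 72.4, 69.1, 72.6, 61.0 and 68.2 TPM with imeglimin. In both tissues the groups overlapped through a single imeglimin library. The difference of the responses was -0.42 (SE 0.101, 95% interval -0.63 to -0.21, adjusted p = 0.0329). Neither call held on the other scales: on the rescaled TPM the differences were -0.26 for Mrpl38 (adjusted p = 0.243) and -0.27 for Mrps15 (adjusted p = 0.221), and with median-ratio scaling -0.21 (adjusted p = 0.419) and -0.23 (adjusted p = 0.326). Without BAT libraries 79 and 94 the adjusted p values were 0.0804 and 0.108. Leaving out the libraries of 1 number at a time gave 0 calls without 75, 79, 80 or 89, 1 call without 83, 91 or 94, and 2 calls without 76, 86 or 88.

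Between BAT and liver no member passed, where 0.167% of genes passed, and at an unadjusted p under 0.05 there was 1 member higher and 1 lower, where 0.829% of genes were higher and 9.41% lower. The lowest p values belonged to Mrpl50 at -0.37 (adjusted p = 0.284), Mrps18a at 0.31 (adjusted p = 0.344) and Mrps16 at 0.25. Between sWAT and liver no member passed either, where 0.127% of genes passed, and 3 members were higher and 4 lower at an unadjusted p under 0.05, where 6.13% of genes were higher and 4.12% lower. Mrps15 at 0.31 (adjusted p = 0.25), Mrpl17 at -0.29 and Mrpl16 at -0.28 (adjusted p = 0.372) had the lowest p values there. In neither of these interactions did a member pass without BAT libraries 79 and 94 and sWAT library 88. The 3 interactions share libraries and are not independent of each other.

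**Figure D4:**
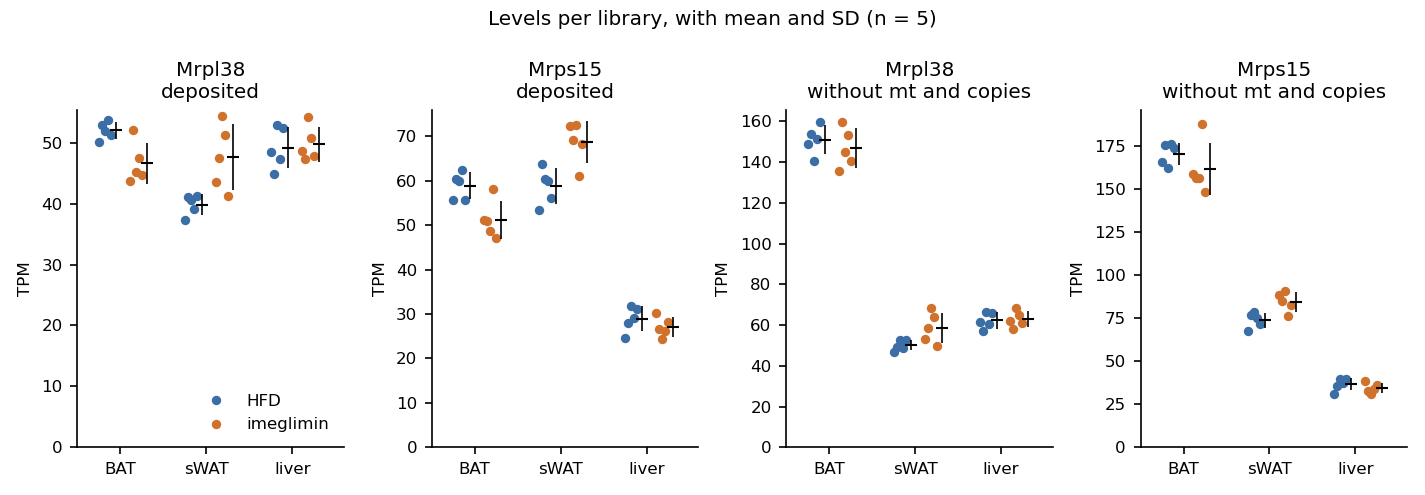
TPM per library of Mrpl38 and Mrps15 under HFD (blue) and HFD with imeglimin (orange) in BAT, sWAT and liver, on the deposited scale and after leaving out mitochondrial transcripts and near-copies. On the deposited scale both genes are lower with imeglimin in most BAT libraries and higher in most sWAT libraries.

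The ribosome's partners were looked at in the same fits. None of the 5 mitoribosomal proteins with other names, 28 assembly factors, 17 translation factors, 19 mitochondrial tRNA synthetases and 12 genes of mitochondrial DNA maintenance and transcription passed in any tissue. In BAT the medians were -0.06 for assembly factors, -0.19 for translation factors, -0.16 for synthetases and -0.13 for the DNA and transcription genes, against -0.12 for all genes tested. Negative values numbered 16 of 17 translation factors and 18 of 19 synthetases there, where 76.9% of all genes were negative. On rescaled TPM the median was -0.07 for translation factors and -0.06 for synthetases, with 14 and 16 negative values, against -0.01 for all genes. The lowest p belonged to Ptcd3, a pentatricopeptide protein of the small subunit, at 22.4 ± 1.54 TPM under HFD and 18.0 ± 1.31 TPM with imeglimin, a log2 difference of -0.30 (adjusted p = 0.0556). Gfm1, the elongation factor that moves the ribosome along the messenger, had 73.9 ± 2.98 against 56.5 ± 8.27 TPM, a difference of -0.39 (adjusted p = 0.0606). Tfb2m, a mitochondrial transcription factor, at -0.33, the isoleucyl-tRNA synthetase Iars2 at -0.32 and the assembly GTPase Noa1 at -0.24 followed (adjusted p = 0.0778, 0.0864 and 0.118). Without BAT libraries 79 and 94 the 4 medians were -0.05, -0.16, -0.14 and -0.11, none of these genes passed, and Ptcd3 and Gfm1 were at -0.28 and -0.35 (adjusted p = 0.209 each). In sWAT the medians of the 4 larger lists were positive, at 0.06, 0.07, 0.13 and 0.20 in the same order, and at 0.05, 0.03, 0.09 and 0.14 without library 88. In the BAT and sWAT interaction 5 of these 81 genes passed on the deposited scale, where 2.05% of all genes passed. They were Gfm2, which recycles ribosomes, at -0.43 (adjusted p = 0.016), Yars2 at -0.43, Dhx30 at -0.37, Lrpprc at -0.44 and Twnk at -0.51. None of these 5 passed on the rescaled TPM, where Gfm2 was at -0.31 (adjusted p = 0.0965), nor with median-ratio scaling, nor without BAT libraries 79 and 94. The share of all genes that passed fell to 0.408%, 0.303% and 0.403% in those 3 fits.

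Between tissues nearly all members differed, and which tissue came out higher depended on the scale. On deposited TPM 15 members were higher and 55 lower in BAT than in sWAT, where 5.40% of all genes tested were higher and 85.3% lower. The median of the members was -0.39 on the log2 scale and that of all genes -1.30. On rescaled TPM 73 members were higher and 1 lower, where 21.3% of all genes were higher and 53.3% lower, with medians of 0.84 and -0.30. With median-ratio scaling 76 were higher and 1 lower, where 28.9% were higher and 42.3% lower, with medians of 1.02 and -0.09. Relative to the median of all genes, the members' median was thus higher in BAT on every scale. On the deposited scale the Mrpl and Mrps genes gave 8 higher with 35 lower and 7 higher with 20 lower. Proteins with a counterpart in the bacterial ribosome and those without one had medians of -0.35 and -0.51.

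The largest positive difference between BAT and sWAT on every scale was that of Mrps36, at 1.78 on deposited TPM (SE 0.0695, adjusted p = 1.29e-19), 3.06 on rescaled TPM and 3.24 with median-ratio scaling. Mrpl34 followed at 0.99, 2.27 and 2.47, and Mrpl12 was higher at 0.35, 1.62 and 1.82. On deposited TPM Mrps35, Mrpl47, Mrps2, Mrps27 and Mrpl42 were also higher in BAT, at 0.68, 0.55, 0.51, 0.40 and 0.39. Mrps6 was lower in BAT on all 3 scales, at -2.34 (SE 0.0967, adjusted p = 4.97e-19), -1.08 and -0.86. It is the 1 member called lower on rescaled TPM and with median-ratio scaling. The other members with the largest deposited differences were near 0 or reversed once mitochondrial transcripts were left out. Mrpl27, the homolog of bacterial L27 near the peptidyl transferase centre, was at -1.34 on deposited TPM, -0.07 on rescaled TPM and 0.13 with median-ratio scaling. Mrpl40 was at -1.20 and 0.04, Mrpl49 at -1.20 and 0.05, Mrps26 at -1.09 and 0.11, and Mrpl57 at -0.98 and 0.22 on deposited and rescaled TPM. Mrpl20 was at -0.98 and 0.28, and Mrpl11, which forms the base of the stalk, at -0.97 and 0.26.

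Against liver, BAT had 50 members higher and 15 lower on deposited TPM, where 30.8% of all genes were higher and 47.6% lower, and the medians were 0.29 for the members and -0.18 for all genes. On rescaled TPM all 78 were higher, where 69.3% were higher and 16.9% lower, with medians of 1.52 and 0.73. With median-ratio scaling 68 were higher and 6 lower, where 43.5% were higher and 37.3% lower, with medians of 0.66 and 0.07. Mrps36 was higher by 3.16 on deposited TPM (SE 0.0695, adjusted p = 4.39e-25) and by 4.42 on rescaled TPM. Mrps6 was higher by 1.87 and 3.12, and Mrps23, a mitochondria-specific protein of the small subunit, by 1.35 and 2.60. Mrpl4, Mrpl34, Mrps9, Mrpl42 and Mrpl47 were higher by 1.26, 1.22, 1.13, 1.09 and 1.08 on deposited TPM. Mrpl52, a mitochondria-specific protein of the large subunit, was lower in BAT on deposited TPM at -1.01 and with median-ratio scaling at -0.65, and higher on rescaled TPM at 0.21. Mrpl14, Mrpl1 and Mrpl27 were at -0.82, -0.73 and -0.55 on deposited TPM and at 0.42, 0.45 and 0.69 on rescaled TPM. Mrpl22, Mrps12, Mrps18c and Mrpl32 behaved likewise, from -0.52, -0.50, -0.39 and -0.31 to 0.71, 0.73, 0.84 and 0.85.

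Between sWAT and liver the deposited and rescaled TPM gave the same counts, 64 members higher in sWAT and 7 lower. On deposited TPM 77.5% of all genes were higher and 15.1% lower, with medians of 0.60 for the members and 1.02 for all genes. On rescaled TPM the shares of all genes were 75.5% and 14.8%, with medians of 0.58 and 0.99. With median-ratio scaling 10 members were higher and 58 lower, where 45.2% of all genes were higher and 37.6% lower, with medians of -0.41 and 0.09. On every scale the members' median was thus lower than that of all genes. Mrps6 was higher in sWAT by 4.21 on deposited TPM (SE 0.0967, adjusted p = 7.06e-25) and by 3.11 with median-ratio scaling. Mrps25, Mrpl20, Mrpl54, Mrpl40, Mrpl33, Mrps36 and Mrps23 were higher by 1.63, 1.49, 1.44, 1.42, 1.38, 1.37 and 1.33 on deposited TPM, and by 0.64, 0.40, 0.34, 0.33, 0.37, 0.30 and 0.25 with median-ratio scaling. Mrpl1 was lower at -0.35 on deposited TPM and -1.36 with median-ratio scaling. Mrps27, Mrpl15, Mrpl14, Mrpl52, Mrpl38 and Mrps31 were lower at -0.27, -0.24, -0.22, -0.21, -0.18 and -0.14. The call of Mrps31 was lost without the libraries numbered 76, 79, 91 or 94.

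**Figure D5:**
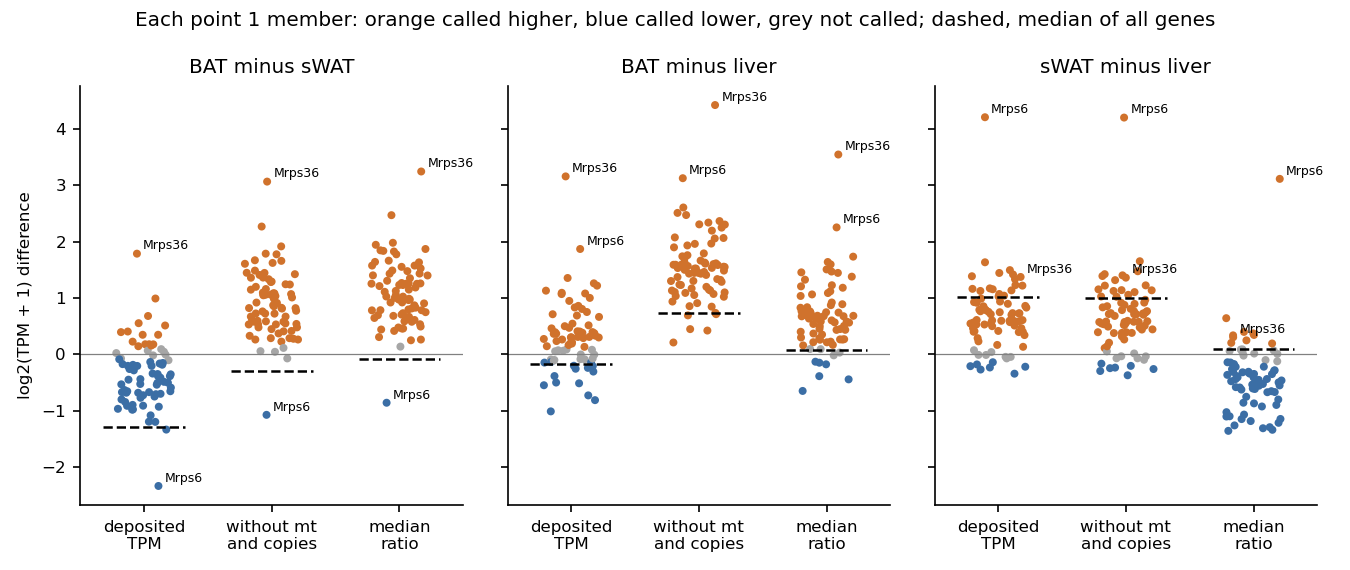
Log2 differences between tissues for the 78 genes in 3 contrasts and on 3 scales; each point is a gene, orange where called higher, blue where called lower and grey where not called by limma at an adjusted p of 0.05, and dashed lines are the medians of all genes tested. Mrps36 and Mrps6 stand apart, at 1.78 and -2.34 for BAT minus sWAT on deposited TPM.

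Without BAT libraries 79 and 94 and sWAT library 88, the deposited counts were 15 higher and 53 lower for BAT minus sWAT, 49 and 16 for BAT minus liver, and 64 and 7 for sWAT minus liver. Ordered by the calls, 59 members followed BAT over sWAT over liver on rescaled TPM, and 7 followed BAT over liver over sWAT. Mrps6 was the single member with sWAT over BAT over liver on that scale. Mrpl27, Mrpl40, Mrpl49 and Mrps26 did not pass between BAT and sWAT and were above liver. On deposited TPM the most frequent orders were sWAT over BAT over liver, with 30 members, and sWAT over liver over BAT, with 10. The summed deposited TPM of the members in BAT was 0.786 times that in sWAT and 1.30 times that in liver, and on rescaled TPM the ratios were 1.91 and 3.09. The sWAT sum was 1.65 times that in liver on deposited and 1.62 times on rescaled TPM. Without Mrps6 and Mrps36 the 3 rescaled ratios were 1.95, 2.93 and 1.51. Without the same 3 libraries, the ratios over all members were 1.90, 3.12 and 1.64 on rescaled TPM and 0.776, 1.30 and 1.67 on deposited TPM.

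Nuclear genes of oxidative phosphorylation, the complexes whose mitochondrially encoded subunits this ribosome makes, had larger ratios between tissues, given here as a description without a test. Their summed TPM in BAT was 2.01 times that in sWAT on the deposited scale and 4.87 times on the rescaled scale, and 2.76 and 6.59 times that in liver. Of 82 such genes tested, 73 were higher and 8 lower in BAT than in sWAT on deposited TPM, with a median of 0.87, and 79 and 2 on rescaled TPM, with a median of 2.15. Of 84 proteins of the cytosolic ribosome, 1 was higher and 83 lower on deposited TPM, with a median of -1.71, and 3 and 63 on rescaled TPM, with a median of -0.44. The members, at -0.39 and 0.84, thus lay between both lists on both scales. Without the 3 libraries the deposited counts were 72 higher and 7 lower for oxidative phosphorylation, with a median of 0.85, and 0 and 83 of 83 tested for the cytosolic ribosome, with a median of -1.63.

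The 3 paralogs of bacterial S18 differed in place and level. Mrps18a, of the large subunit, had 20.3 ± 2.22 TPM in BAT, 15.6 ± 1.90 TPM in liver and 23.2 ± 1.82 TPM in sWAT (SD, n = 10 each). Mrps18b had 34.1 ± 2.87, 37.9 ± 3.58 and 55.1 ± 6.34 TPM, and Mrps18c 32.5 ± 2.55, 42.8 ± 3.53 and 59.2 ± 3.35 TPM, in the same order. Liver libraries of Mrps18a, at 11.7 to 18.0 TPM, overlapped those of BAT, at 16.0 to 23.1 TPM. For BAT minus sWAT the log2 differences on deposited and rescaled TPM were -0.19 and 1.06 for Mrps18a, -0.67 and 0.58 for Mrps18b and -0.85 and 0.41 for Mrps18c. Mrpl58, which releases peptides from stalled ribosomes, had 15.7 ± 1.19 TPM in BAT, 14.7 ± 1.21 TPM in liver and 22.7 ± 1.63 TPM in sWAT.

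The ribosome's proteins with other names and its assembly factors shared the dependence on scale. For BAT minus sWAT on deposited TPM, Dap3, a GTP-binding protein of the small subunit, was at -0.72, Aurkaip1 at -0.82, Chchd1 at -0.35, Gadd45gip1 at -0.30 and Ptcd3 at 0.13, and all 5 were called higher on rescaled TPM. Of 28 assembly factors, 1 was higher and 25 lower in BAT than in sWAT on deposited TPM, and 22 were higher and 0 lower on rescaled TPM. For 17 translation factors the counts were 6 and 8 on deposited TPM and 16 and 0 on rescaled TPM. The 19 tRNA synthetases gave 3 and 14, then 17 and 0.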

How the data were processed

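Poly(A) RNA of each tissue was made into strand-specific libraries, per the labels' protocols. STAR, RSEM and the mouse build GRCm39 were used, per the submitters' processing notes, and their versions and filters are unstated there. TPM per gene were deposited by the authors, each library scaled to 1000000, so depth and counting error are unknown. All sample columns were used.

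Values were analysed as log2(TPM + 1), so fold changes of low genes are understated, in R 4.3.3 with limma 3.58.1 (trended variance, moderated two-sided tests). A gene was tested where 5 or more libraries of the fit had 1 TPM or more, and Benjamini-Hochberg adjustment ran over all of them, with a threshold of 0.05. The imeglimin response was fitted in each tissue on its 10 libraries. Tissue contrasts, averaged over both treatments, and interactions were fitted on all 30 libraries as 6 group means. The fits were also run on simulated libraries with known shifts and independent noise for each gene. Those had no shift common to a whole library, so they do not bear on the dependence on scale or on single libraries. The rescaled TPM leaves out mitochondrially encoded genes and 16 nuclear near-copies of their transcripts, found with BLAST+ 2.17.0 in GENCODE vM21 transcripts at 90% identity over 80% of the length. Median-ratio scaling used the median ratio of each library to the geometric mean. Other computations used Python 3.11.15.

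Named members are those called for imeglimin or the 5 of lowest p in each tissue, the 8 largest differences each way per tissue contrast, called members or the 3 of lowest p per interaction, the levels' extremes, and genes of particular roles. The members and lists were chosen with earlier results of these data known. Alternatives were another pseudocount, no filter, other scalings, a constant prior variance, a replicate block, each treatment alone and libraries left out.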

Additional observations from a re-analysis of the deposited data

Results flagged for a closer look

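In each group of 5 libraries the highest or lowest value of every named member was checked for a wide gap to the rest. The summed TPM of the Mrpl genes and that of the Mrps genes were checked likewise. The critical value was 0.71 for the gap over the whole range. Of 294 sets of values, 22 had such a library, or 7.48%, where chance gives about 1 in 20. The values below are deposited TPM.

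In BAT under HFD, library 80 was high in 5 genes. It had 185 for Mrpl12 (others 152 to 159), 12.1 for Mrpl15 (9.07 to 9.68), 278 for Mrpl34 (225.0 to 240.3), 16.1 for Mrpl47 (11.3 to 11.6) and 9.95 for Mrps25 (7.47 to 7.95). Library 76 had 60.2 for Mrpl27 (46.3 to 49.8), and library 83 had 17.2 for Mrps31 (20.4 to 20.6). In BAT with imeglimin, library 91 had 51.3 for Mrps12 (41.2 to 43.2) and library 86 had 37.1 for Mrps2 (34.3 to 35.0).

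In liver under HFD, library 83 had 58.5 for Mrpl18 (70.4 to 74.7), 6.85 for Mrpl33 (6.07 to 6.21) and 100.5 for Mrpl34 (115 to 119). Library 79 had 14.7 for Mrpl17 (11.8 to 12.4) and 21.9 for Mrpl4 (25.3 to 26.1), and library 75 had 9.60 for Mrps10 (7.23 to 7.88). With imeglimin, liver library 88 had 86.1 for Mrps21 (77.3 to 78.8).

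In sWAT under HFD, library 76 had 65.1 for Mrps12 (70.0 to 71.9) and library 79 had 17.0 for Mrps31 (18.5 to 19.0). In sWAT with imeglimin, library 88 had 29.1 for Mrpl11 (33.0 to 34.4) and 10.6 for Mrpl19 (6.89 to 7.89). Library 86 had 56.8 for Mrpl14 (63.6 to 65.3), and library 94 had 55.6 for Mrps18c (58.4 to 59.0). In library 88 the hepatocyte markers summed to 14330 TPM and the lymphocyte markers to 3276 TPM, where the other sWAT libraries had at most 1129 and 2029. Its white adipocyte markers summed to 8120 TPM, where the others had at least 15360. The part of marker content in these values was not tested.

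The response to imeglimin differed between BAT and sWAT by limma's interaction test for Mrpl38, at -0.40 on the log2 scale, and for Mrps15, at -0.42. Both calls ended on rescaled TPM, with median-ratio scaling and without BAT libraries 79 and 94.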

How the results depend on the processing

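Of 1374 alternative values for named members, 1305 kept their direction and their side of the threshold, 36 reversed, 32 lost and 1 gained a call. The pseudocount, the filter and the prior variance left every count of members called within 1.5 times the reported one. The 99 calls over all genes for imeglimin in BAT became 101 with the other pseudocount, 10 with a constant prior variance and 0 with no filter, and with 1 number left out ran from 0 to 698. The 2 in sWAT became 0 with a constant prior variance or no filter, and ran from 0 to 4. For BAT minus sWAT the counts became 76 higher and 1 lower with median-ratio scaling, and 73 and 1 without mitochondrial transcripts, with medians of 1.023 and 0.838. For BAT minus liver they became 78 and 0 without mitochondrial transcripts and 6 lower with median-ratio scaling, and for sWAT minus liver 10 and 58 with median-ratio scaling, with a median of -0.412. Reversed genes for BAT minus sWAT, with median-ratio scaling and without mitochondrial transcripts, were Mrpl40 (0.247, 0.043), Mrpl49 (0.26, 0.054), Mrps26 (0.304, 0.112), Mrpl57 (0.414, 0.224), Mrpl20 (0.491, 0.285) and Mrpl11 (0.456, 0.26), and Mrpl27 with median-ratio scaling (0.135). For BAT minus liver without mitochondrial transcripts they were Mrpl52 (0.208), Mrpl14 (0.42), Mrpl1 (0.445), Mrpl27 (0.689), Mrpl22 (0.711), Mrps12 (0.734), Mrps18c (0.844) and Mrpl32 (0.853, and 0.029 with median-ratio scaling). The cause of the reversals was not tested beyond the change of scale itself.

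The count of 2 for the BAT and sWAT interaction became 0 with median-ratio scaling, without mitochondrial transcripts, without BAT libraries 79 and 94 (an alternative chosen after seeing the data) and also without sWAT library 88. The cause was not tested. Leaving out 1 number at a time gave 0 to 2 calls there and 0 to 2 for imeglimin in BAT, 14 to 15 higher and 52 to 54 lower for BAT minus sWAT, 48 to 50 and 13 to 17 for BAT minus liver, and 64 and 6 to 7 for sWAT minus liver. The summed TPM of the members in BAT, imeglimin over HFD on the log2 scale, moved from -0.024 to 0.098 without mitochondrial transcripts and 0.122 with median-ratio scaling, and ranged from -0.049 to 0.007 with a number left out.

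The libraries were not treated as paired by their shared numbers, since the labels do not say what a number marks and not every pair correlated above 0.1: 9 of 30 did (median 0.0716, range -0.484 to 0.31). In 11 of 30 the best correlation was with the own number, where chance gives 3, a hint of pairing from the data and not from the design. With the replicate block the counts were 15 and 55, 50 and 16, and 64 and 7 for the 3 tissue contrasts, and 2, 0 and 0 for the interactions. With the block and without mitochondrial transcripts they were 73 and 1, 78 and 0, and 0 for the BAT and sWAT interaction, with a median of 0.838 for BAT minus sWAT. Depth is unknown, and 5 libraries a group limited single responses to a median 95% interval of 0.16 to 0.20 on either side.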
